A study of Mus musculus with 32 samples.

Results

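Gene expression in the tibialis anterior, a fast limb muscle, of Gaa-/- mice was compared between 9 and 6 months of age. The members were all arrays labelled with this genotype and either age, 4 at 6 months and 4 at 9 months, and thus 8 of the 32 arrays of the series. Every probe set with a gene symbol was tested, 19291 of 20079. The Gaa-/- mice are labelled GAA-KO 6neo/6neo on a B6/129 background, and the 8 wild-type (WT) arrays set beside them, 4 at 6 and 4 at 9 months, came from B6/129 mice labelled Wild type. The other 16 arrays were WT and Gaa-/- muscles of 1.5 and 4 months, again 4 per group. No treatment is labelled in any group. The labels call the arrays of a group biological replicates and the design statement calls them animals, so the errors below describe the spread between animals of 1 age. Neither the sex of the mice nor the hour of sampling is stated in the sources used here.

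The product of Gaa, acid alpha-glucosidase, breaks glycogen down inside lysosomes. Without it glycogen accumulates in lysosomes, autophagic debris builds up in fast glycolytic fibres, and muscles weaken and waste, the course seen in Pompe disease of humans. In the mouse knockout, glycogen storage is present early while weakness and wasting develop over months, so the comparison asks which transcripts change late in adult life once storage is established.

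All levels are deposited log2 values, in which a difference of 1 means a 2-fold change. Gaa itself read 6.82, 6.63, 6.44 and 7.18 in the Gaa-/- arrays at 6 months and 6.86, 6.81, 6.90 and 6.91 at 9 months. The values of the 2 ages overlapped, and the difference of 0.10 gave p = 0.60 in an exact two-sided permutation test, whose smallest possible p is 0.0286. In WT the level was 10.32 to 10.65 at 6 months and 10.62 to 10.70 at 9 months, above every Gaa-/- array at both ages. The fast myosin genes Myh4 and Myh1, skeletal actin (Acta1) and muscle creatine kinase (Ckm) had Gaa-/- means of 12.3 to 13.7 at 6 months on arrays whose highest value was 13.8. Between 2 arrays of the same Gaa-/- age Pearson's r was 0.977 to 0.987 across genes, and between the ages 0.970 to 0.987.

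1 array stood apart before any test between the ages. Replicate 1 of the 6-month Gaa-/- group carried RNA of cell types that the other 7 Gaa-/- arrays held at lower levels. S100a8, a calcium-binding protein of neutrophils, read 6.85 there, 2.52 to 2.87 in the other 6-month arrays and 2.26 to 3.25 at 9 months. Ngp, a neutrophil granule protein, read 7.71 against 3.70 to 3.85 and 3.71 to 3.96. Adipoq, the fat cell hormone adiponectin, read 8.03 against 4.94 to 6.08 and 4.82 to 6.13, and the tendon proteoglycan Fmod read 9.59 against 7.22 to 7.45 and 5.99 to 7.40. The number of called genes, and the medians of the cell type lists described below, are given with and without it.

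Between 6 and 9 months, 52 of 19291 genes (0.270%) changed in Gaa-/- muscle at an adjusted p under 0.05 in limma, which uses the spread within all 8 groups. Of these, 24 rose (0.124% of all genes) and 28 fell (0.145%). The sizes were modest. Log2 rises ran from 0.42 to 0.99, and falls from 0.45 to 1.78. The only called genes that moved at least 2-fold were Mettl21e and Clu, and both fell. In all 24 risers and in 25 of the 28 genes that fell, the 4 values at 9 months lay outside the range at 6 months, which was the case for 1247 of all genes (6.46%). The called genes were picked by a small p on the same values, so this separation is not a separate test. Of all genes, 2198 (11.4%) had an unadjusted p under 0.05.

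**Figure D1:**
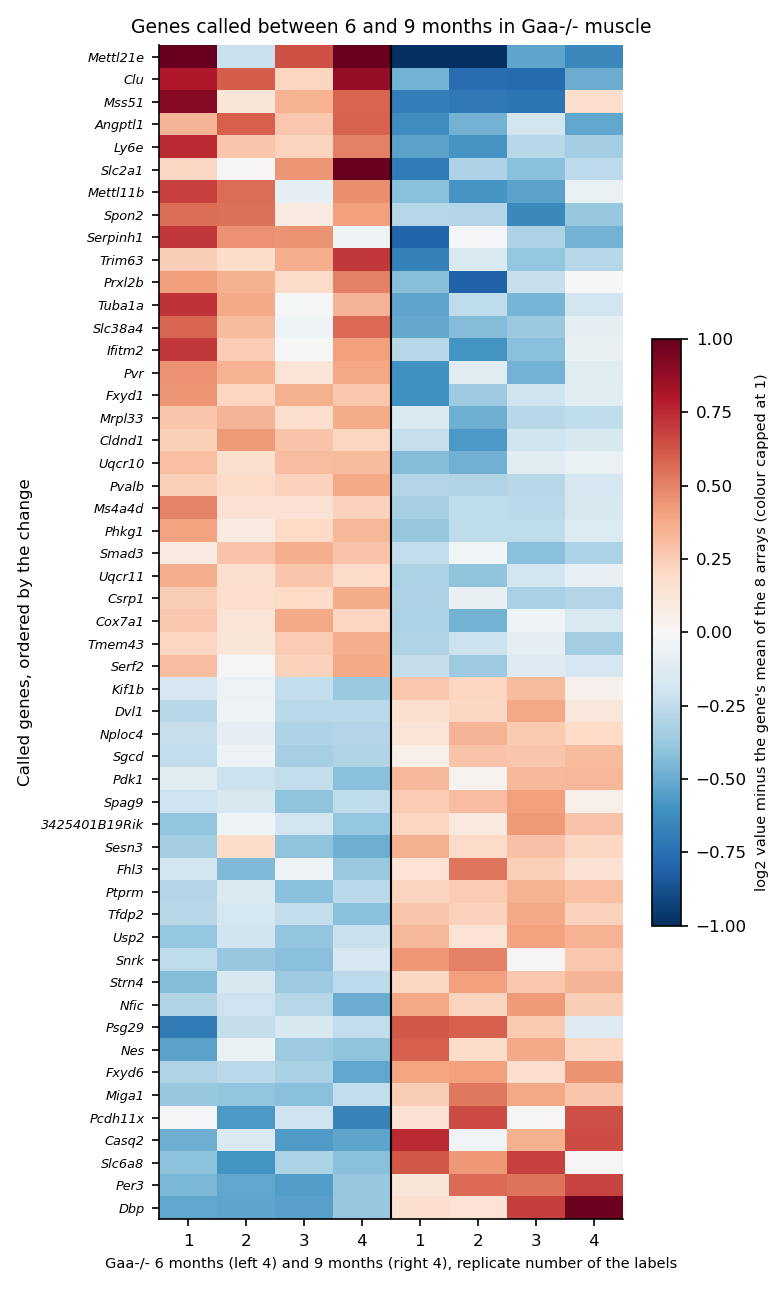
The 52 called genes in the 8 Gaa-/- arrays, coloured by the log2 value minus the mean of the gene over these arrays, with the 6-month arrays on the left and the 9-month arrays on the right. The colours are capped at 1. By group mean, 28 genes turn from red to blue and 24 from blue to red at the line between the ages. Single arrays can differ, such as replicate 2 of the 6-month group in Mettl21e and in Sesn3.

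The calls depended on single arrays. Without replicate 1 of the 6-month group 6 genes were called, and all 6 were among the 52. These were Clu, Cldnd1, Pvalb, Tfdp2, Nfic and Pcdh11x. Leaving out replicate 4 of that group left 10 calls, and leaving out replicate 1, 2 or 3 of the 9-month group left 7, 25 or 15 calls. Without replicate 2 or 3 of the 6-month group or replicate 4 of the 9-month group there were 37, 77 and 63 calls. Clu, Cldnd1, Pvalb, Tfdp2 and Nfic were called with any 1 of the 8 arrays left out, and every other of the 52 lost the call at least once. None of the 52 changed sign under any of these settings.

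The core clock of a muscle fibre is a loop in which the activators Arntl and Clock drive, through E-box sequences, the Per, Cry and Nr1d repressors and the D-box activators Dbp, Tef and Hlf. In a resting muscle these transcripts swing over each day, with Arntl in antiphase to Dbp and the Per genes. In Gaa-/- muscle 2 of the 18 measured genes of the clock list rose from 6 to 9 months and none fell, beside 0.124% and 0.145% of all genes. The 2 risers were Per3 and Dbp. Per3, a period gene, read 6.43, 6.37, 6.33 and 6.51 at 6 months and 7.01, 7.45, 7.43 and 7.56 at 9 months, so every 9-month array was above every 6-month array. The rise was 1.93-fold (log2 0.95 ± 0.18, limma estimate ± standard error, adjusted p = 0.0230). Dbp, a D-box activator and direct output of the clock, read 8.99, 8.98, 8.97 and 9.13 and then 9.68, 9.65, 10.20 and 10.49. Its rise of 1.98-fold (log2 0.99 ± 0.22, adjusted p = 0.0429) came from 4 arrays that all lay above the 6-month range. Per3 lost its call in 2 of the 8 fits that left out an array, and Dbp in 7.

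Other clock genes lay on the same side without passing the threshold. Bhlhe41, an E-box repressor, had 8.06, 8.37, 8.19 and 8.20 at 6 months and 8.74, 8.97, 8.84 and 8.83 at 9 months (log2 difference 0.64 ± 0.15, adjusted p = 0.0546). Nr1d2, a nuclear receptor that represses Arntl, differed by 0.47 ± 0.11 (adjusted p = 0.0608), Cry2 by 0.51 ± 0.12 (adjusted p = 0.0643) and the clock repressor Ciart by 0.93 ± 0.25 (adjusted p = 0.104). The activator Arntl was lower at 9 months in all 4 arrays, at 6.93, 6.65, 6.71 and 6.58 against 7.44, 7.44, 7.26 and 7.47 (log2 difference -0.69 ± 0.17, adjusted p = 0.0740). In 9 of the 18 clock genes the 9-month values were all above the 6-month values, and in 2 all below, beside 3.34% and 3.13% of all genes. The median difference of the 18 genes was 0.26, beside 0.0036 over all genes, and it ran from 0.15 to 0.38 with any 1 array left out. In WT none of the 18 was called between the same ages and their median difference was -0.11.

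The earlier ages put these levels in context. In Gaa-/- muscle Dbp had a mean of 10.71 at 1.5 months, 8.70 at 4 months, 9.02 at 6 months and 10 at 9 months, and in WT the means were 11.22, 9.21, 10.13 and 9.72. Per3 went from 7.54 through 6.26 and 6.41 to 7.36 in Gaa-/- and from 7.69 through 6.65 and 7.45 to 7.33 in WT. Both genes had their lowest mean at 4 months in both genotypes. At 6 months Gaa-/- was below WT by 1.04 in Per3 and 1.11 in Dbp (adjusted p = 0.000192 and 0.000991), a comparison that uses the same 6-month Gaa-/- arrays. At 9 months the genotypes differed by 0.034 in Per3 and 0.28 in Dbp (adjusted p = 0.927 and 0.441). The hour of sampling, with which these transcripts vary in any muscle, is unstated for both ages, and its part was not tested.

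The promoters of 3 of these clock genes are printed where they hold letters that factors of the loop are known to bind, and a match describes the sequence only. They are RefSeq sequences of build GRCm38.p6 written 5′ to 3′ along the transcribed strand, with the motif in capitals, from a window of 250 bases before to 50 after the start of the transcript. The stretch of Per3 lies at chr4:151044791-151044895 on the minus strand and holds 2 D-boxes, 205 and 158 bases before the start. That of Ciart lies at chr3:95882242-95882369 on the minus strand and holds 3 E-boxes, 116, 58 and 44 bases before the start. Bhlhe41 at chr6:145865543-145865598 on the minus strand holds 1 E-box 153 bases before the start.
Per3: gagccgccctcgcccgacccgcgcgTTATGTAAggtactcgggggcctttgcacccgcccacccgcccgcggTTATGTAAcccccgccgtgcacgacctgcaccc
Ciart: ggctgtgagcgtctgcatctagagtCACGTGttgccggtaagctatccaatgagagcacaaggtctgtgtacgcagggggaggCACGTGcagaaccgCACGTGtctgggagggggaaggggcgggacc
Bhlhe41: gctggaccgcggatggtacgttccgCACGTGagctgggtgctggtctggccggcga
The E-box was searched as CACGTG and the D-box as TTACGTAA or TTATGTAA, on both strands. An E-box was found in 5 of 16 clock genes with a promoter in the table and in 8.09% of 27025 genes. Among called genes it was found in 1 of 21 risers and 1 of 23 that fell. A D-box was found in 1 of the 16 clock genes, which is Per3, and in 1.23% of all genes. No E-box letters occur in the 250 bases before the start of Dbp, which describes these bases only. The lysosomal CLEAR element, whose letters hold an E-box within them, was in 0.370% of all genes and in none of the 44 called genes with a promoter in the table.

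**Figure D2:**
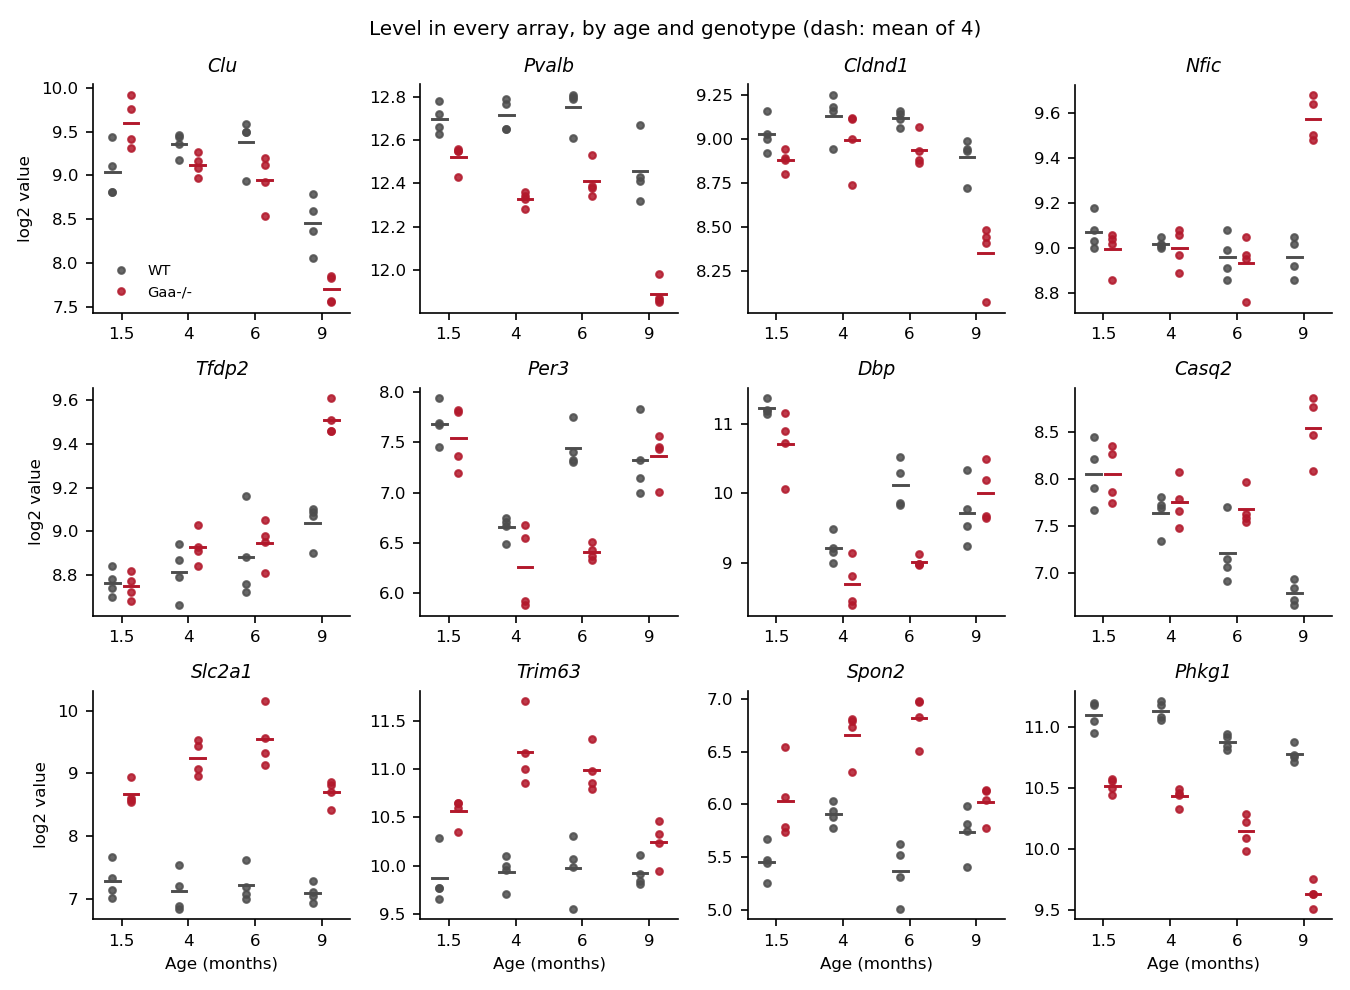
Level of 12 called genes in every array (log2 value on the vertical axis) against age in months, WT in grey and Gaa-/- in red, with a dash at the mean of 4. Per3 and Dbp dip in Gaa-/- at 4 and 6 months, Nfic and Tfdp2 stand above all earlier arrays at 9 months, and Slc2a1 stays above every WT array at every age.

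Glucose uptake and the control of glycogen breakdown each had 1 member that fell. Slc2a1 encodes GLUT1, the glucose transporter of the basal state, and read 9.33, 9.13, 9.56 and 10.15 at 6 months and 8.42, 8.81, 8.70 and 8.86 at 9 months in Gaa-/- muscle. The groups did not overlap, and the level was 1.79-fold lower at 9 months (log2 -0.84 ± 0.19, adjusted p = 0.0428). It was the only called gene of the 15 measured in the glycolysis and glucose uptake list, whose median difference was -0.14. WT muscle held less Slc2a1 at both ages, 7.0 to 7.62 and 6.93 to 7.28. Gaa-/- muscle exceeded WT by 2.32 at 6 months and still by 1.61 at 9 months (adjusted p = 2.18e-10 and 2.41e-07). The change of Slc2a1 in Gaa-/- minus that in WT was -0.71 ± 0.27 and was not called (adjusted p = 0.341).

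Phkg1, the catalytic subunit of muscle phosphorylase kinase, which switches on cytosolic glycogen breakdown, read 10.29, 9.98, 10.09 and 10.22 at 6 months and 9.51, 9.63, 9.63 and 9.75 at 9 months. It fell by 0.51 on the log2 scale (1.43-fold, SE 0.090, adjusted p = 0.0110), and lost the call in 2 of the 8 fits with an array left out. Its Gaa-/- means were 10.52, 10.43, 10.14 and 9.63 at 1.5, 4, 6 and 9 months, and its WT means were 11.09, 11.13, 10.88 and 10.78. Among the 19 measured genes of glycogen synthesis and breakdown it was the only one called. Ppp1r3c, a glycogen-targeting subunit of protein phosphatase 1, had 11.14, 10.98, 10.73 and 10.69 and then 10.29, 10.64, 9.93 and 9.91 (log2 difference -0.69 ± 0.18, adjusted p = 0.0896). Gys1, muscle glycogen synthase, differed by -0.19 ± 0.093 (adjusted p = 0.438) and the glycogen-binding protein Stbd1 by -0.38 ± 0.17 (adjusted p = 0.392). The list had a median difference of -0.13 in Gaa-/- and -0.09 in WT.

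Pdk1, a kinase that shuts pyruvate dehydrogenase, rose from 8.0, 7.90, 7.87 and 7.70 to 8.44, 8.15, 8.44 and 8.45, 1.42-fold (log2 0.50 ± 0.12, adjusted p = 0.0495, the closest to the threshold of all 52). Its relative Pdk4, which fasting and fat oxidation induce, had 11.19, 10.79, 11.70 and 12.11 and then 10.13, 10.22, 10.69 and 10.52, with no overlap and a log2 difference of -1.06 ± 0.27 (adjusted p = 0.0751). None of the 24 fatty acid uptake and oxidation genes passed the threshold in Gaa-/- muscle and their median difference was 0.09, which ran from 0.029 (without replicate 3 of the 6-month group) to 0.14 (without replicate 4 of it). In WT 10 of the 24 fell, beside 6.34% of all genes, and the median was -0.38. The test of the difference between genotypes called none of the 24. All calls in WT carry the limit that 2 genes were called there with the spread of each array as a covariate, 1 of them among the 1827 called without it.

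Respiratory chain genes were mostly lower at 9 months, and few passed the test. Of 61 measured genes of oxidative phosphorylation, 50 had a negative difference and 2 fell at the threshold, beside 49.2% and 0.145% of all genes. Cox7a1, the muscle isoform of a small cytochrome c oxidase subunit, read 11.34, 11.20, 11.45 and 11.29 at 6 months and 10.76, 10.60, 11.03 and 10.92 at 9 months (log2 -0.49 ± 0.10, adjusted p = 0.0240). Uqcr10, a small subunit of complex III, read 9.80, 9.66, 9.81 and 9.82 and then 9.07, 9.02, 9.40 and 9.44 (log2 -0.54 ± 0.11, adjusted p = 0.0270). The 2 ages did not overlap in either gene, and the falls were 1.4-fold and 1.46-fold. 2 further mitochondrial genes, outside the list and picked because they were called, also fell. Uqcr11, another complex III subunit, fell by 0.50 and the mitochondrial ribosomal protein Mrpl33 by 0.58 on the log2 scale (adjusted p = 0.0270 and 0.0343). With an array left out, Uqcr10 lost its call in 4 of 8 fits, Cox7a1 and Uqcr11 in 5 and Mrpl33 in 6. Of other called mitochondrial genes, Mss51 fell by 0.98, while Miga1 rose by 0.71 and Pdk1 by 0.50.

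The median of the 61 genes was -0.22 in Gaa-/- and -0.32 in WT, where 25 of the 61 fell and none rose. Over all genes 6.34% fell in WT, and so did 902 of the 4823 genes with the highest mean level. The Gaa-/- median of the 61 genes became -0.15 with the spread of each array as a covariate. The array spread, the standard deviation of all values of an array, differed between the WT ages. It was 1.88 to 1.975 at 6 months and 1.884 to 1.945 at 9 months in Gaa-/- (difference -0.025, exact permutation p = 0.37), and in WT it dropped by 0.089 (exact permutation p = 0.0286). With the array spread as a covariate 99 genes were called in Gaa-/-, 51 of the 52 among them. Of the called genes, 18 of 24 risers and 21 of 28 that fell were among the 4823 brightest of all genes by mean level, whose median difference was -0.033 in Gaa-/- and -0.17 in WT.

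Fibre-type genes moved in single members rather than as groups. Pvalb encodes parvalbumin, the calcium buffer that speeds relaxation in the fastest fibres, and it had a narrow range in each group, 12.39, 12.34, 12.38 and 12.53 at 6 months and 11.86, 11.85, 11.87 and 11.98 at 9 months. It fell 1.43-fold (log2 -0.52 ± 0.088, adjusted p = 0.00937). In WT the range was 12.61 to 12.81 at 6 months and 12.32 to 12.67 at 9 months, and the fall of 0.29 was called there too (adjusted p = 0.0333). Casq2, the calsequestrin of cardiac muscle and slow fibres, which binds calcium in the sarcoplasmic reticulum, went the other way. It read 7.63, 7.97, 7.55 and 7.59 and then 8.86, 8.09, 8.47 and 8.77, a rise of 1.82-fold (log2 0.86 ± 0.18, adjusted p = 0.0343). The lowest 9-month array, replicate 2, was barely above the highest 6-month array, and Casq2 lost its call in 6 of the 8 fits with an array left out.

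Pvalb was the only called gene of 15 fast fibre genes (median difference -0.06) and Casq2 the only one of 14 slow fibre genes (median 0.10, and -0.04 to 0.11 with an array left out). Myh2, the myosin of fast oxidative IIA fibres, had the largest difference of the fast list. It read 12.16, 12.49, 12.09 and 11.63 at 6 months and 13.52, 12.79, 13.27 and 13.07 at 9 months without overlap (log2 difference 1.07 ± 0.37, adjusted p = 0.228). The error is large because animals of a group differ in this gene, and the WT arrays of 6 months alone ran from 10.45 to 13.04. The main myosins of the muscle differed by -0.028 in Myh4 (IIB) and 0.090 in Myh1 (IIX), with 95% intervals of -0.19 to 0.13 and -0.084 to 0.26. Myoz2, a Z-disc protein of slow fibres, differed by 0.69 ± 0.22 (adjusted p = 0.177), and Myh7, the slow myosin, by 0.32 ± 0.18 (adjusted p = 0.506). In whole muscle RNA, fewer fibres of a type and less RNA per fibre cannot be told apart.

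Of the atrophy genes, 1 fell and 1 rose. Trim63 encodes MuRF1, the ubiquitin ligase that marks myosin for breakdown in atrophy. It fell from 10.86, 10.80, 10.98 and 11.32 to 9.94, 10.46, 10.23 and 10.33, 1.69-fold (log2 -0.75 ± 0.17, adjusted p = 0.0466). All 9-month arrays were below all 6-month arrays, but the call was lost in each of the 8 fits with an array left out, where the adjusted p was 0.053 to 0.19. In WT its range was 9.55 to 10.31 at 6 months and 9.81 to 10.11 at 9 months. The excess over WT was 1.01 at 6 months (adjusted p = 0.000123) and 0.32 at 9 months (adjusted p = 0.236). The change of Trim63 in Gaa-/- minus that in WT was -0.69 ± 0.24 and was not called (adjusted p = 0.311). Usp2, a deubiquitinase that is also an output of the clock, rose from 8.41, 8.6, 8.40 and 8.57 to 9.12, 8.93, 9.20 and 9.14 (log2 0.60 ± 0.12, adjusted p = 0.0240). Its WT range was higher at 6 months, at 9.25 to 9.56, than any Gaa-/- array of that age.

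Of the 14 measured atrophy genes these were the only calls, 1 in each direction, and their median difference was -0.012 (0.071 with array spread as a covariate and 0.023 after a second quantile normalization). Fbxo32, the other main atrophy ligase (atrogin-1), differed by -0.44 ± 0.20 (adjusted p = 0.404). Mstn, the secreted inhibitor of muscle growth, read 6.67, 6.41, 6.46 and 6.17 and then 5.75, 4.84, 5.83 and 5.92 (log2 difference -0.84 ± 0.21, adjusted p = 0.0731). Smad3, which carries the signal of activin and transforming growth factor beta receptors, fell from 8.74, 8.94, 9.02 and 8.94 to 8.41, 8.63, 8.24 and 8.34 (log2 -0.50 ± 0.11, adjusted p = 0.0398). Sesn3, a sestrin that restrains the growth kinase mTORC1, rose by 0.53 (adjusted p = 0.0460) from 6.95, 7.48, 6.89 and 6.81 to 7.65, 7.49, 7.59 and 7.50, where replicate 2 of the 6-month group was almost as high as the 9-month arrays.

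3 genes known from muscle for protein methylation or for mitochondria also fell. Mettl21e, a protein methyltransferase-like gene expressed in muscle, had the largest change of the comparison. It read 6.53, 4.89, 5.75 and 6.85 at 6 months, a wide spread, and 4.01, 3.84, 4.59 and 4.47 at 9 months, 3.42-fold lower (log2 -1.78 ± 0.36, adjusted p = 0.0240). At 9 months these values lay below the lowest array median of 5.66, so the fold may understate the change, as it may for Angptl1, Mettl11b, Psg29 and Pcdh11x, whose lower group mean was also under it. Its Gaa-/- means were 7.47, 6.85, 6.00 and 4.23 at 1.5, 4, 6 and 9 months. In WT the mean was 7.68 at 6 months and 6.66 at 9 months. Mettl11b, which methylates protein N termini, fell by 0.81 and Mss51, a muscle-enriched mitochondrial protein, by 0.98 (adjusted p = 0.0238 and 0.0466). In both, 1 array of the 9-month group overlapped the 6-month range, and in WT both fell by similar amounts (-0.81 and -0.92, adjusted p = 0.00532 and 0.0109).

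Besides Slc2a1, which fell, 4 called genes that encode membrane transporters or their regulators are described here, 2 higher and 2 lower, picked because they were called. Slc6a8, the creatine transporter of muscle, rose from 9.95, 9.76, 10.04 and 9.94 to 10.98, 10.79, 11.04 and 10.37 (1.83-fold, log2 0.87 ± 0.17, adjusted p = 0.0236). It was the only one of the 24 risers that also rose in WT, by 0.90 (adjusted p = 0.00401). Slc38a4, a neutral amino acid transporter, fell from 9.01, 8.74, 8.38 and 8.99 to 7.91, 7.99, 8.05 and 8.33 (log2 -0.71 ± 0.14, adjusted p = 0.0246). It also fell in WT, by 0.69 (adjusted p = 0.0071). 2 small regulators of the sodium pump had opposite signs. Fxyd1, phospholemman, fell from 10, 9.78, 9.92 and 9.83 to 8.96, 9.20, 9.36 and 9.45 (log2 -0.64 ± 0.14, adjusted p = 0.0360), and in WT by 0.51 (adjusted p = 0.0215). Fxyd6 rose from 8.48, 8.51, 8.46 and 8.26 to 9.18, 9.19, 8.95 and 9.23 (log2 0.71 ± 0.14, adjusted p = 0.0236). Each of these 4 genes separated the ages completely, which for Slc6a8, Slc38a4 and Fxyd6 was a condition of the rule that named them.

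None of the 19 measured genes of the sarcomere and Z-disc list was called. 8 called genes outside it that encode structural, cytoskeletal or cargo proteins are given next, as a description and not as a tested group. Nes, the intermediate filament nestin of muscle precursors and of the neuromuscular junction, rose from 6.62, 7.09, 6.79 and 6.75 to 7.75, 7.34, 7.53 and 7.36 (log2 0.68 ± 0.14, adjusted p = 0.0238). It exceeded WT at 6 months by 0.49 and at 9 months by 1.07, and the test of the difference between genotypes gave 0.58 ± 0.19 (adjusted p = 0.289). Sgcd, delta-sarcoglycan of the dystrophin complex, rose by 0.47, and Fhl3, a LIM-domain protein of muscle, by 0.53 (adjusted p = 0.0343 and 0.0466). The transport genes Kif1b, a kinesin motor, and Spag9, a scaffold that links cargo to motors, rose by 0.42 and 0.51 (adjusted p = 0.0466 and 0.0270). Tuba1a, an alpha-tubulin, fell from 8.30, 7.96, 7.57 and 7.92 to 7.05, 7.33, 7.12 and 7.40 (log2 -0.71 ± 0.16, adjusted p = 0.0358). Csrp1, a LIM protein that binds actin-associated partners, fell by 0.50, and Tmem43, a protein of the inner nuclear membrane, by 0.47 (adjusted p = 0.0236 and 0.0343). In WT Tuba1a fell by 0.68 and Csrp1 by 0.33 (adjusted p = 0.0086 and 0.0295), while Tmem43 differed by 0.093 (adjusted p = 0.592).

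The fall with the smallest p was in a secreted protein. Clu, clusterin, an extracellular chaperone, read 9.12, 8.93, 8.54 and 9.20 at 6 months and 7.85, 7.56, 7.55 and 7.83 at 9 months. It was 2.38-fold lower at 9 months (log2 -1.25 ± 0.17, adjusted p = 0.000494), and it alone among the 52 kept its call under every planned setting. The same gene fell in WT by 0.93 (adjusted p = 0.00356). Angptl1, a secreted angiopoietin-like protein, fell from 5.43, 5.69, 5.36 and 5.68 to 4.47, 4.62, 4.91 and 4.57 (log2 -0.90 ± 0.18, adjusted p = 0.0240). Spon2, a secreted matrix protein, fell from 6.98, 6.97, 6.51 and 6.83 to 6.14, 6.13, 5.78 and 6.04 (1.74-fold, log2 -0.80 ± 0.16, adjusted p = 0.0246). Here WT differed in sign, with 5.01 to 5.62 at 6 months and 5.41 to 5.99 at 9 months. Serpinh1, the collagen chaperone HSP47, fell by 0.79 (adjusted p = 0.0279), with 1 array on each side overlapping.

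Other genes that fell encode membrane or small cytosolic proteins, grouped here only for description. Ly6e and Ifitm2, both known as interferon-inducible membrane proteins, fell by 0.87 and 0.68 (adjusted p = 0.0238 and 0.0348). In WT Ly6e fell by 1.11 and Ifitm2 by 0.74 (adjusted p = 0.00122 and 0.00607). None of the 21 measured genes of the interferon response list was called, and their median difference was -0.11, and -0.0036 without replicate 1 of the 6-month group. Pvr, a nectin-like adhesion molecule, fell from 7.36, 7.25, 7.03 and 7.29 to 6.30, 6.78, 6.43 and 6.78 (log2 -0.66 ± 0.13, adjusted p = 0.0246), while its WT range was 5.73 to 6.27 at 6 months and 5.86 to 6.39 at 9 months. Cldnd1, a claudin-domain protein, fell from 8.88, 9.07, 8.93 and 8.86 to 8.41, 8.07, 8.44 and 8.48 (log2 -0.58 ± 0.10, adjusted p = 0.0133), and Ms4a4d by 0.51 (adjusted p = 0.0466). The remaining genes that fell were Prxl2b, a prostaglandin F synthase, by 0.73 (adjusted p = 0.0463) and the small protein gene Serf2 by 0.45 (adjusted p = 0.0270). In WT Prxl2b fell by 0.83 (adjusted p = 0.0053), and Serf2 differed by -0.14 (adjusted p = 0.355).

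The remaining genes that rose are given here without a list behind them, the transcription factors first. Nfic, a nuclear factor I transcription factor, read 8.95, 9.05, 8.97 and 8.76 at 6 months and 9.64, 9.48, 9.68 and 9.50 at 9 months. All 9-month arrays exceeded every earlier array of either genotype (1.56-fold, log2 0.64 ± 0.090, adjusted p = 0.000494, equal to that of Clu and the smallest of the comparison). Its Gaa-/- means at 1.5 and 4 months were 8.99 and 9.00, and the WT means lay between 8.96 and 9.07 over the 4 ages. Tfdp2, the dimer partner of E2F factors, rose from 8.95, 9.05, 8.98 and 8.81 to 9.51, 9.46, 9.61 and 9.46 (log2 0.56 ± 0.10, adjusted p = 0.00937). None of the 21 measured cell cycle genes was called. The kinase Snrk, of the AMPK family, rose by 0.61, Strn4, a striatin of phosphatase complexes, by 0.61 and the receptor phosphatase Ptprm by 0.56 (adjusted p = 0.0429, 0.0203 and 0.0230). Dvl1, which relays Wnt signals, rose by 0.44, and Nploc4, a cofactor of the p97 segregase, by 0.46 (adjusted p = 0.0343 and 0.0343). Miga1, a mitochondrial outer membrane protein that promotes fusion, rose from 6.59, 6.57, 6.55 and 6.72 to 7.21, 7.49, 7.35 and 7.24 (log2 0.71 ± 0.14, adjusted p = 0.0230). The last 3 risers were Pcdh11x, a protocadherin, Psg29 of the pregnancy-specific glycoprotein family, and 3425401B19Rik, named only by its clone. The values of Pcdh11x (3.34 to 4.66) and Psg29 (3.37 to 4.69) lay below every array median.

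Set beside the same ages in WT, most genes that fell were lower there too. WT arrays between 6 and 9 months gave 1827 called genes (9.47%), 604 higher (3.13%) and 1223 lower (6.34%) from the same model. The WT count rested on the scale of the arrays and on single arrays. It was 2 with the array spread as a covariate, 748 higher and 801 lower after a second quantile normalization, and 311 without replicate 1 of the 9-month WT group. Of the 28 genes that fell in Gaa-/-, 25 were lower in WT and 16 of them were called lower there, with a WT median of -0.41. Of the 24 risers, 15 were higher in WT and 1 was called higher, with a WT median of 0.08. Over all genes 47.2% were below 0 in WT. That share is not matched for level. Of the 28 genes that fell, 21 were among the 4823 brightest genes, of which 902 fell in WT, with a WT median of -0.17. Across all genes the change in Gaa-/- and the change in WT had Pearson's r = 0.39 (Spearman's rho 0.33), a description across genes, which are not independent replicates.

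**Figure D3:**
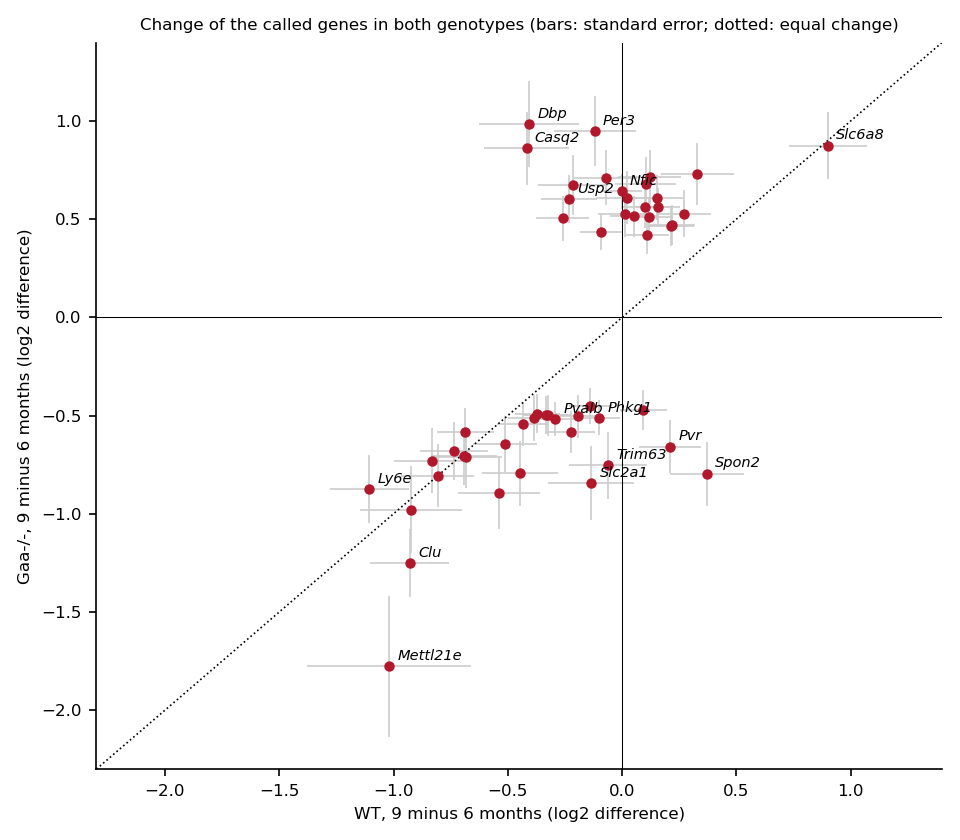
Log2 change from 6 to 9 months of the 52 called genes in Gaa-/- (vertical axis) against WT (horizontal axis), with bars of 1 standard error. Of the 28 genes that fell, 25 lie left of 0 for WT, and Slc6a8, at 0.87 and 0.90, lies by the dotted line of equal change.

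A difference in change between the genotypes was tested for every gene, and none of 19291 passed (0%), while 2083 genes (10.8%) had an unadjusted p under 0.05. The smallest adjusted p was 0.081, shared by Spon2 and Nfic among the called genes and by Hcn4, Relt and Mt3 outside them. The change in Gaa-/- minus that in WT was -1.17 ± 0.23 in Spon2 and 0.64 ± 0.13 in Nfic. In Hcn4, Relt and Mt3 it was -1.22 ± 0.23, 1.01 ± 0.19 and -1.29 ± 0.26. Among the called genes Casq2 followed with a difference of 1.28 ± 0.26 and Usp2 with 0.84 ± 0.17 (adjusted p = 0.083 for both). Then came Pdk1 with 0.76 ± 0.16 and Pvr with -0.87 ± 0.19 (adjusted p = 0.096 for both). Per3 and Dbp differed by 1.07 ± 0.25 and 1.39 ± 0.31 (adjusted p = 0.153 and 0.114). None of the 8 genes named here from those called in Gaa-/- was called in WT, and none had a called difference between the genotypes. They were picked by their change in Gaa-/-, and the same values enter the difference, so its size is not a separate result. The count was 10 with dim genes left out, 12 with a trended and robust variance, 18 without replicate 2 of the 9-month Gaa-/- group and 7 without replicate 4 of the 9-month WT group. Nfic, Casq2, Spon2, Usp2 and Pdk1 were called in the first 3 of these settings. Relt, not called in Gaa-/- alone, was called in the same settings and also without replicate 4 of the 9-month WT group.

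Most of the 42 gene lists examined had no called member between 6 and 9 months in Gaa-/- muscle. Calls fell in 7 lists and on 10 of the 730 measured genes that the lists hold (1.37%, beside 0.270% of all genes). At the share over all genes a single list would seldom hold a call, so a list without one says little, and the lists were chosen with earlier results known. Lysosomal hydrolases and membrane proteins, the compartment that lacks the enzyme, had 0 of 41 called, with 32 below 0. Their median was -0.12 (-0.19 without replicate 3 of the 6-month group). In WT 12 of the 41 fell, beside 6.34% of all genes, with a median of -0.30. V-ATPase subunits had 0 of 16 called and a median of -0.11, which was 0.0062 without replicate 2 of the 9-month group. Autophagy machinery had 0 of 43 called and a median of -0.084, and -0.052 without replicate 2 of the 6-month group. Sqstm1, the autophagy receptor p62, read 10.97, 11.08, 11.14 and 11.02 and then 10.75, 10.86, 10.84 and 10.94 (log2 difference -0.21 ± 0.090, adjusted p = 0.370). Proteasome subunits had 0 of 29 called (median -0.11, and -0.042 without replicate 2 of the 9-month group). In WT 11 of the 29 fell (median -0.34), against the same 6.34% of all genes.

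**Figure D4:**
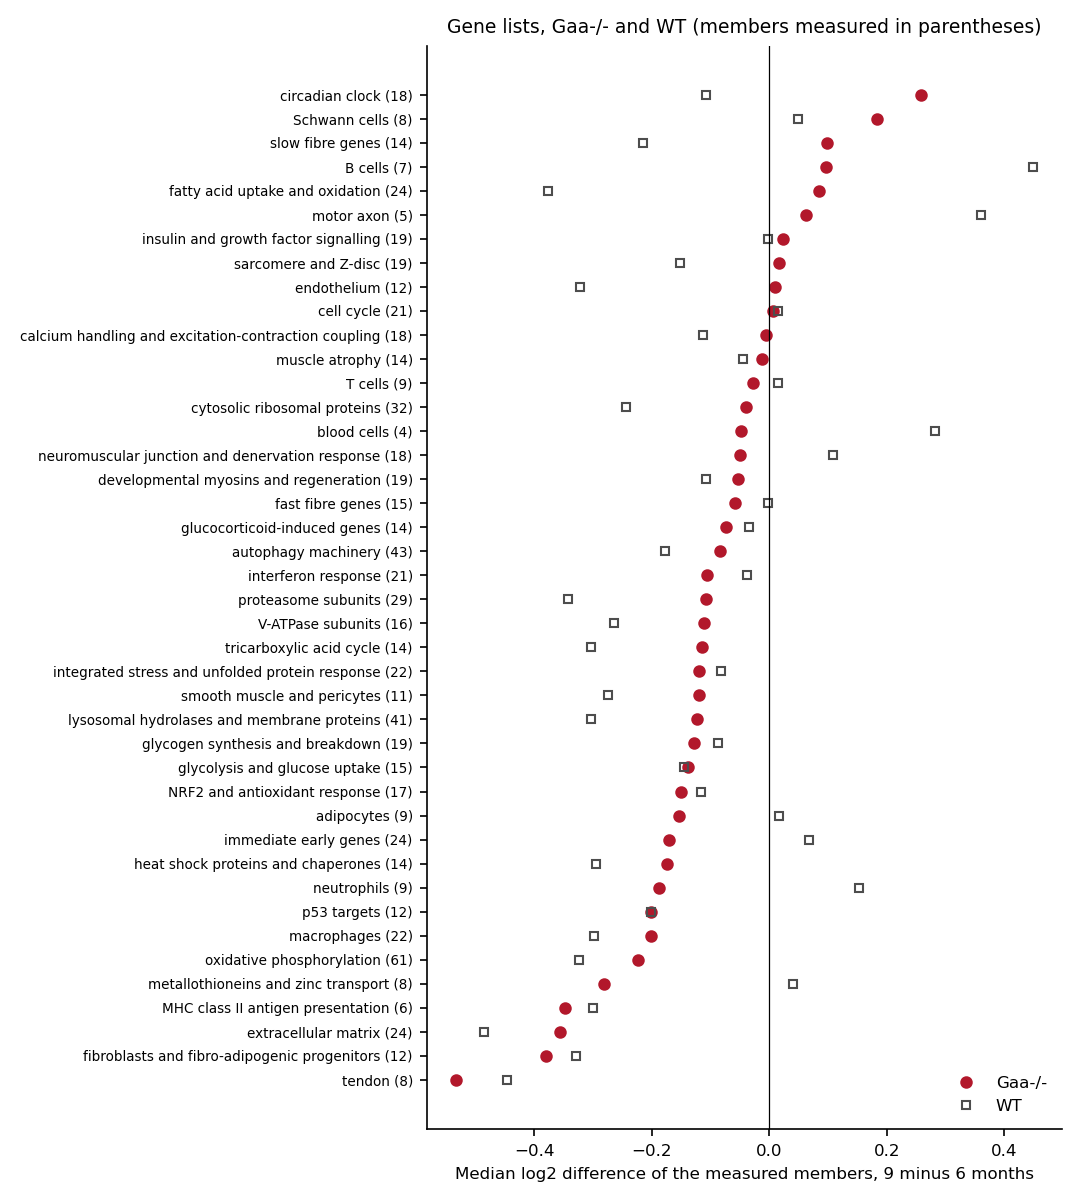
Median log2 difference between 9 and 6 months of the measured members of each of 42 gene lists, Gaa-/- as red circles and WT as open squares. The clock list has the highest Gaa-/- median, 0.26, and the tendon list the lowest, -0.53.

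No list for a cell type other than muscle fibres had a call, and several medians moved with the array that stood apart. The 22 macrophage genes had a median of -0.20, with 20 below 0, -0.10 without replicate 1 of the 6-month group and -0.42 without replicate 3 of it. Lyz2, macrophage lysozyme, read 9.85, 9.01, 8.52 and 9.39 at 6 months and 7.99, 7.87, 8.56 and 8.73 at 9 months (log2 difference -0.90 ± 0.23, adjusted p = 0.0868), and C1qa, a complement component, 8.19, 7.53, 6.62 and 7.34 and then 6.47, 6.61, 6.6 and 7.04 (adjusted p = 0.142). In both, replicate 1 was the highest and replicate 3 the lowest 6-month array. The 6 genes of MHC class II presentation had a median of -0.35, and -0.15 without that array. For tendon (8 genes) the median was -0.53 with and -0.17 without it, and for neutrophils (9 genes) -0.19 and 0.08. The adipocyte list (9 genes) had -0.15 with and 0.024 without it, and the Schwann cell list (8 genes) 0.18 and 0.021. T cells (9 genes) had -0.027 and 0.015, and B cells (7 genes) 0.096 and 0.10. The blood cell list (4 genes) had -0.048 and -0.0085, endothelium (12 genes) 0.0098 and 0.044, and smooth muscle and pericytes (11 genes) -0.12 and -0.16. In WT the medians were -0.30 for macrophages and for MHC class II, -0.45 for tendon, -0.32 for endothelium and -0.27 for smooth muscle and pericytes. They were above 0 in WT for neutrophils (0.15), adipocytes (0.016), Schwann cells (0.048), T cells (0.015), B cells (0.45) and blood cells (0.28).

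The extracellular matrix list (24 genes, 22 below 0) had a median of -0.36, and -0.25 without the array. Fibroblast genes (12) had -0.38 and -0.30. In WT the matrix list had 7 members that fell and the fibroblast list 4, beside 6.34% of all genes, with medians of -0.49 and -0.33. The mean level of the 24 matrix genes was 7.74 to 8.18 in the 6-month and 7.47 to 7.57 in the 9-month Gaa-/- arrays, and that of the 22 macrophage genes 5.96 to 6.99 and 6.00 to 6.41. Serpinh1, Angptl1, Spon2, Ms4a4d and Clu are expressed by cells other than muscle fibres. Clu kept its call without replicate 1 of the 6-month group (adjusted p = 0.00421), and the others did not (adjusted p from 0.072 to 0.21). Without that array the log2 differences were -0.93 in Angptl1, -0.74 in Spon2, -0.69 in Serpinh1 and -0.43 in Ms4a4d, against -0.90, -0.80, -0.79 and -0.51 with it.

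Genes that differed between the genotypes at 4 months were followed from 6 to 9 months. At 4 months 656 genes (3.40%) were higher in Gaa-/- than in WT and 443 (2.30%) were lower. The 4-month means come from other arrays, but both tests use the spread of each gene within all 8 groups. A gene with a small spread is called more easily in both, so the shares that follow are not independent of this choice. Of the 656, 3 rose (0.457%) and 6 fell (0.915%) between 6 and 9 months, beside 0.124% and 0.145% of all genes, and their median difference was -0.05. Of the 443, 1 rose (0.226%) and 6 fell (1.35%), with a median of -0.03. The median gap to WT of the 656 genes was 0.58 at 6 months and 0.69 at 9 months, and that of the 443 genes -0.49 and -0.35. In WT the same sets had medians of -0.14 and -0.18 between the ages.

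The 12 genes with the largest genotype differences at 4 months are shown one by one. Mt2, a metal-binding metallothionein, read 12.28, 11.10, 11.97 and 12.67 in Gaa-/- at 6 months and 10.87, 11.21, 11.12 and 11.22 at 9 months (log2 difference -0.90 ± 0.28, adjusted p = 0.166). WT read 7.07 to 7.70 and 6.97 to 7.25. Mt3 read 8.28, 7.96, 7.89 and 8.12 and then 7.33, 7.28, 7.34 and 7.72 without overlap (log2 difference -0.65 ± 0.18, adjusted p = 0.120), and rose in WT by 0.65 (adjusted p = 0.0247). The test of the difference between genotypes gave -1.29 ± 0.26 (adjusted p = 0.0810). Rrad, a small GTPase that curbs calcium channels, had 8.10, 8.22, 7.42 and 8.70 and then 6.63, 5.97, 7.22 and 7.71, the largest difference of the 12 at -1.23 ± 0.30 (adjusted p = 0.0727). Klf5, a zinc-finger transcription factor, differed by -0.77 ± 0.34 and the protease inhibitor Serpinb1a by -0.40 ± 0.21 (adjusted p = 0.381 and 0.467). Klf5 differed by -0.45 without replicate 4 of the 6-month group. Serpinb1a differed by -0.22 without replicate 2 of the 9-month group and by -0.61 without replicate 3 of the 6-month group. Map1a, a microtubule-associated protein, kept within 8.47 to 8.75 over the 8 arrays, and its 95% interval for the difference was -0.19 to 0.40.

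Among the genes that were furthest below WT at 4 months, Mss51 was the only one of the 12 that passed the test between 6 and 9 months. Aqp4, the water channel of fast fibres, read 5.33, 4.79, 4.80 and 4.85 and then 4.67, 4.82, 4.76 and 5.04 (log2 difference -0.12 ± 0.21, 95% interval -0.55 to 0.30, and 0.0069 without replicate 1 of the 6-month group). These levels are below the lowest array median at both ages. Mettl21c, another muscle methyltransferase gene, differed by -0.48 ± 0.29 and the cytochrome P450 gene Cyp4f39 by -0.19 ± 0.22 (adjusted p = 0.551 and 0.780). With 1 array left out Cyp4f39 ran from -0.38 (without replicate 1 of the 9-month group) to -0.060 (without replicate 2 of it). In WT, where these genes start from a higher level, each fell between the ages, Aqp4 by 0.76, Mettl21c by 0.96, Cyp4f39 by 0.96 and Mstn by 0.95 (adjusted p from 0.0082 to 0.035).

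**Figure D5:**
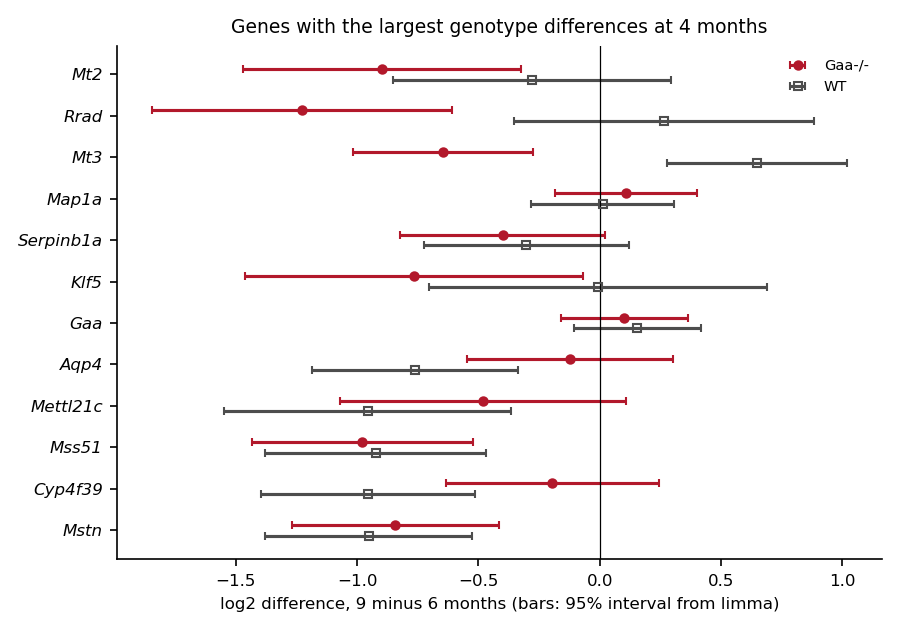
Log2 difference between 9 and 6 months, with 95% intervals from limma, of the 12 genes with the largest differences between genotypes at 4 months, Gaa-/- as red circles and WT as open squares. Rrad has the largest Gaa-/- difference, -1.23, and Mt3 lies below 0 in Gaa-/- and above 0 in WT.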

How the data were processed

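RNA of whole tibialis anterior (100 ng from about 20 mg of tissue) was biotin-labelled and hybridised to 1-colour Affymetrix arrays. The values used are the log2 expression values the authors deposited, 1 per probe set and array; per the submitters' processing notes they were made with RMA and the R package affy, whose versions are not stated. RMA subtracts background, gives all arrays nearly the same distribution and summarises probes, so a shift of most genes would not be seen. Of 20079 probe sets, 19291 had 1 gene symbol and 788 had none and were left out. Arrays carry no read depth, and their number, 4 per group, limits the precision.

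In R 4.3.3, limma 3.58.1 (lmFit and eBayes) was fitted to all 32 arrays with 1 mean per group, and the contrasts were Gaa-/- 9 minus 6 months, WT 9 minus 6 months and their difference. Every adjusted p in the text is a two-sided limma p adjusted by Benjamini-Hochberg over all 19291 genes, called under 0.05. The fit had 24 residual and 6.929 prior degrees of freedom. Errors after ± are standard errors of the fit, and ranges in brackets are 95% intervals. Single values were compared by exact permutation tests. The script was checked on simulated data.

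Genes were named by rule: Gaa, the 12 largest called rises and falls without overlap, the 6 highest and 6 lowest genotype differences at 4 months, and the members of each list with the smallest p. The other called genes were named after their values were seen, to account for all 52. The comparison, the 42 gene lists and these rules were chosen with earlier results of these data known. Promoters are from RefSeq, and 44 of the 52 called genes had one. The sources used here name neither slide nor scan date, so no batch could be examined. Alternatives covered the arrays fitted, scaling, array spread, dim genes, variance moderation, array weights, the replicate number and each left-out array.

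Between same-numbered arrays of 6 and 9 months in Gaa-/- the correlation of deviations was -0.010, -0.037, -0.089 and 0.16. Only replicate 4 correlated best with its own number. In WT replicates 1 and 2 did so, at 0.028 and 0.013. Such values cannot show what the numbers share, and the arrays were treated as unpaired.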

Additional observations from a re-analysis of the deposited data

Results flagged for a closer look

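In each Gaa-/- age group of 63 named genes, the highest or lowest of the 4 arrays was set against the gap to its neighbour, and 13 of 126 such groups (10.3%) had 1 array whose gap to the rest passed Dixon's 95% limit for 4 values. Chance flags about 1 in 20 groups. At 9 months, Mss51 read 8.22 in replicate 4 against 7.31 to 7.35 in the others. Pvalb read 11.98 in replicate 4 against 11.85 to 11.87, and Mt3 7.72 in replicate 4 against 7.28 to 7.34. Csrp1 read 8.04 in replicate 2 against 7.79 to 7.82. Pdk1 was low in replicate 2, at 8.15 against 8.44 to 8.45, as was Mstn, at 4.84 against 5.75 to 5.92. Sgcd was low in replicate 1, at 9.63 against 9.85 to 9.89.

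At 6 months, Uqcr10 read 9.66 in replicate 2 against 9.80 to 9.82, and Dvl1 8.8 in replicate 2 against 8.57 to 8.58. Dbp read 9.13 in replicate 4 against 8.97 to 8.99, and Klf5 8.93 in replicate 4 against 7.52 to 7.76. Serpinb1a was low in replicate 3, at 8.93 against 9.74 to 9.80. Aqp4 read 5.33 in replicate 1, the array with the neutrophil, fat and tendon transcripts, against 4.79 to 4.85.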

How the results depend on the processing

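Against 52 called genes, the Gaa-/- comparison gave 2 calls on its 8 arrays alone (1 of them among the 52), 6 on the 16 Gaa-/- arrays, 99 with array spread as a covariate, 160 of 10029 genes with dim genes left out, 119 with a trended and robust variance, 111 with array weights and 2 at 2-fold or more. With 1 array left out the count ran from 6 to 77. Chosen after seeing the data, leaving out the lowest-spread array of both Gaa-/- groups gave 18, and 31 with the spread covariate as well. Median-centring and a second quantile normalization gave 38 and 73. The WT count of 1827 became 449 on 8 arrays, 2 with the spread covariate and 99 at 2-fold, and ran from 311 to 2797 with 1 array left out. The difference between genotypes, 0 as reported, gave 10 without dim genes, 12 with a trended and robust variance and 0 to 18 with 1 array left out. The cause of these shifts was not tested.

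None of the 52 genes changed sign under any alternative run. The difference in Gaa level, 0.10, ran from -0.0077 to 0.24 with 1 array left out, below 0 only without replicate 3 of the 6-month group. That of Aqp4 ran from -0.1951 to 0.0069. With the replicate number as a replicate block 48 genes were called, 46 of the 52 among them. What the numbers stand for is not labelled.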
